A study of Homo sapiens with 12 samples.

Results

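The 31 genes described here encode enzymes and regulators of cholesterol and fatty acid synthesis. They were chosen by name from the textbook pathways, with earlier results of these data known. They were matched to gene identifiers by symbol and read as sums over their transcripts, out of 61860 genes in the deposited table. They comprise 7 genes of the mevalonate and isoprenoid steps, 11 genes of the steps from squalene to cholesterol, 6 genes of control and transport, and 7 genes of fatty acid synthesis and desaturation. All 31 passed the filter on low counts in every comparison (a mean count above 2), with between 247 and 157619 expected counts in a library.

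Cholesterol is built in the cytosol and the endoplasmic reticulum from acetyl-CoA through mevalonate, isoprenoids, squalene and lanosterol, and fatty acids are built from the same precursor. When sterols in the endoplasmic reticulum are low, SCAP escorts the SREBP proteins, encoded by SREBF1 and SREBF2, to the Golgi, where they are cut to release transcription factors that act on most genes of both pathways, whereas INSIG1 and INSIG2 hold the SCAP complex back when sterols are plentiful. PGC-1α is a transcriptional co-activator of energy metabolism, and its C-terminal RS domain, rich in arginine and serine, binds RNA.

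The study compared 2 stable lines of HEK293 Flp-In T-REx cells, a human embryonic kidney line with an integration site for transgenes. Both lines carry a doxycycline-inducible cassette whose miRNAs deplete endogenous PGC-1α and which supplies an miRNA-resistant, FLAG-tagged PGC-1α, which is full length in the line WT-res and lacks the RS domain in the line ΔRS-res. Both were induced with doxycycline at 1 µg/ml for 6 days, and whole-cell RNA (1 well) and cytoplasmic RNA (6 wells pooled) were sequenced in 3 replicates per line and fraction, taken from consecutive passages, which gave 12 libraries with 90333190 to 144628005 expected counts each. Each genotype is represented by 1 stable line, so genotype and line cannot be told apart, and the controls are themselves depleted of endogenous PGC-1α and express the transgene. The cytoplasmic fraction is the supernatant of a hypotonic lysis after centrifugation. In bulk libraries fewer expressing cells and less RNA per cell cannot be told apart.

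The lines were checked by their markers before the results were read. PPARGC1A, the gene of PGC-1α itself, was at 671, 689 and 498.30 CPM (counts scaled to library size) in replicates 1 to 3 of whole-cell WT-res and at 352, 364 and 498.28 CPM in ΔRS-res, and in the cytoplasm at 538 to 652 CPM against 287 to 385 CPM. The level does not show the deletion, since gene sums also count reads from the transgene and from outside the RS domain. Of the 5 embryonic kidney markers PAX2, LHX1, WT1 and SIX2 were at 1.67 to 10.97 CPM and PAX8 at no more than 0.053 CPM, whereas ALB, ADIPOQ, PTPRC and PECAM1 of other cell types were at 0.12 CPM or below and PLIN1 at 0.36 to 0.87 CPM. Of the mature kidney markers UMOD was at 0 in all 12 libraries, SLC12A1 at 0.019 CPM or below and AQP1 at 0.42 to 1.15 CPM. The library labelled as replicate 3 of whole-cell WT-res stood apart and is called the doubted library below: DDX19B was at 0.199 CPM there and at 12.6 and 13.2 CPM in the other WT-res whole-cell libraries, against 0.229 to 0.263 CPM in ΔRS-res, and SDHA was at 335 CPM there against 72.7 and 70.9 CPM in the others and 338 to 392 CPM in ΔRS-res. For these genes it read close to ΔRS-res, so whole-cell results are given with and without it where it moves them, and the remaining ones hold it.

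In whole-cell RNA 26 of the 31 genes were higher in ΔRS-res than in WT-res and 5 were lower, with a median log2 fold change of 0.24, beside 0.0042 over the 26793 genes tested. None passed the test (edgeR's quasi-likelihood test, Benjamini-Hochberg adjusted p under 0.05 over all genes tested), and 0% of all genes did. At an unadjusted p under 0.05, 13 members were higher and none lower, beside 4% and 8.54% of all genes. DESeq2 called 3 of the 31, SCD, LSS and FASN, all higher, beside 1% of all genes called higher. By the threshold of the study, an unadjusted p under 0.05 and a log2 fold change above 0.5 in size, 1 passed, FADS2, beside 6.34% of all genes. Without the doubted library 4 genes rose, HMGCS1, IDI1, FDFT1 and SQLE, beside 0.886% of the 26762 genes tested that were called higher and 1.18% called lower. That fit keeps ΔRS-res replicate 3 with no WT-res replicate 3 beside it. All 4 genes were above their group mean in replicate 3 of every group (described below), so the values include that difference. The replicate numbers paired the whole-cell libraries, and with the number as a block 8 genes rose, LSS, DHCR7, SREBF2, SCAP, ACLY, FASN, SCD and FADS2, beside 2.78% of all genes called higher and 5.19% called lower. With the block and without the doubted library 20 rose and 1 fell, INSIG1, beside 7.41% called higher and 9.2% called lower. The count of members called in whole-cell RNA therefore ran from 0 to 21 with the fit.

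In cytoplasmic RNA the same direction was seen. With the 4 libraries the study kept, WT-res replicates 1 and 3 and ΔRS-res replicates 1 and 2, 17 of the 31 genes rose and 2 fell, beside 10.7% and 11.4% of the 25814 genes tested, and the median log2 fold change was 0.34 beside 0.0067 over all genes. With all 6 cytoplasmic libraries 3 rose, HMGCS1, IDI1 and FDFT1, and none fell, beside 0.578% of the 25949 genes tested called higher and 0.948% called lower, while the median stayed at 0.30 beside 0.0043. DESeq2 called 10 of the 31 in the 6 libraries, all higher, beside 1.64% called higher, and the fit with the replicate block called 5, all higher, beside 0.748%. By the threshold of the study 9 of the 31 passed in the 4 libraries, beside 13.1%. The 2 cytoplasmic comparisons share their 4 libraries and are not independent of each other. In the 4 libraries WT-res has a replicate 3 and ΔRS-res has none. The 2 kept WT-res libraries were also nearer each other (chi-square per gene of 60.5) than either was to replicate 2 (109.5 and 127.7). The 2 kept ΔRS-res libraries were at 24.1 from each other and at 141 and 168 from replicate 3. In replicate 3 of all 4 groups 7 members were above their group mean and 12 below it (described below). The 17 and 2 calls, and the counts by role from these 4 libraries below, therefore cannot separate line from replicate number or from which libraries were kept.

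**Figure D1:**
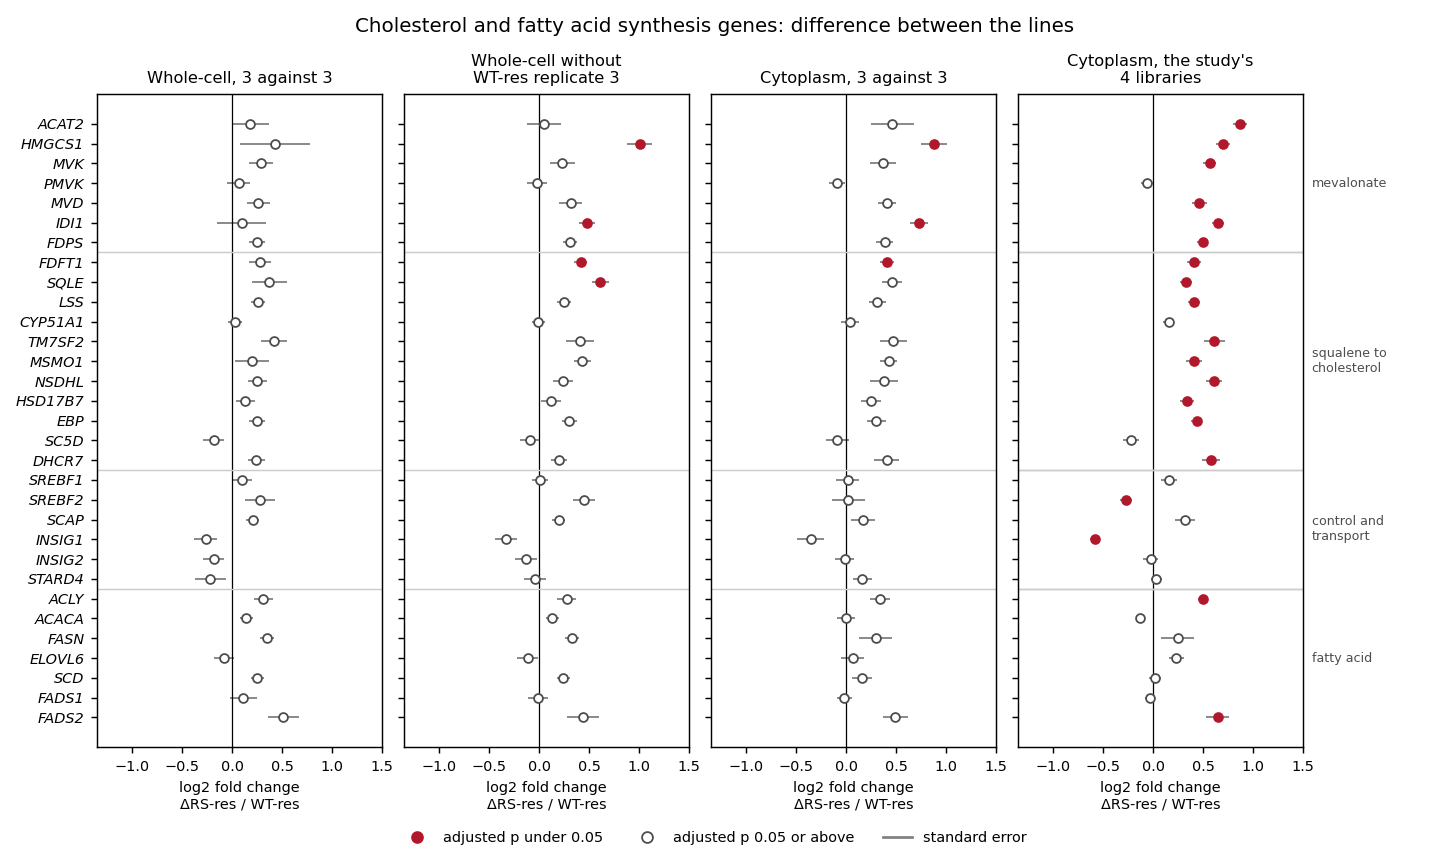
Log2 fold change of each of the 31 genes, ΔRS-res over WT-res, with its standard error, in whole-cell RNA with and without the doubted library (replicate 3 of WT-res) and in the cytoplasm with 6 and with 4 libraries, grouped by role. Filled points passed an adjusted p under 0.05: 0, 4, 3 and 19 genes from left to right, of which INSIG1 and SREBF2 on the right are lower in ΔRS-res.

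HMGCS1, the cytosolic synthase that makes HMG-CoA for the mevalonate pathway, differed most among the 31 in the 6 cytoplasmic libraries. In whole-cell RNA it was at 112, 114 and 279 CPM in WT-res replicates 1 to 3 and at 205, 205 and 269 CPM in ΔRS-res. In the cytoplasm it was at 128, 127 and 147 CPM in WT-res and at 213, 231 and 294 CPM in ΔRS-res. All 3 ΔRS-res libraries lay above all 3 WT-res libraries in the cytoplasm, whereas in whole-cell RNA the highest value of all was that of the library labelled WT-res replicate 3. The log2 fold change in the 6 cytoplasmic libraries was 0.88 ± 0.127 (SE, adjusted p = 0.016), and in the 4 libraries 0.70 ± 0.0725 (adjusted p = 0.00239). In whole-cell RNA it was 0.43 ± 0.349 (adjusted p = 0.689), and 1.00 ± 0.129 (adjusted p = 0.0115) without that library.

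IDI1, the isomerase that interconverts the activated isoprene units, followed the same order. Its whole-cell levels were 66.0, 71.9 and 131 CPM in WT-res and 90.5, 94.3 and 103 CPM in ΔRS-res, and its cytoplasmic levels were 80.4, 84.3 and 87.1 CPM against 127, 135 and 156 CPM. The cytoplasmic groups did not overlap, and again the doubted library was the highest of the whole-cell libraries. IDI1 rose by a log2 fold change of 0.73 ± 0.0899 (adjusted p = 0.00844) in the 6 cytoplasmic libraries and of 0.65 ± 0.0571 (adjusted p = 0.00158) in the 4. The whole-cell value was 0.098 ± 0.246 (adjusted p = 0.926), and 0.48 ± 0.0833 (adjusted p = 0.037) without the library that stood apart.

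FDFT1, squalene synthase, commits farnesyl units to sterols, and SQLE, squalene epoxidase, adds the oxygen from which the sterol ring is closed. FDFT1 was at 169, 177 and 181 CPM in the cytoplasm of WT-res and at 219, 243 and 239 CPM in ΔRS-res, a log2 fold change of 0.41 ± 0.0716 (adjusted p = 0.0346). Its whole-cell values were 158, 159 and 206 CPM against 214, 204 and 218 CPM, and they overlapped only through the library labelled WT-res replicate 3. SQLE was at 21.1, 17.5 and 19.95 CPM in the cytoplasm of WT-res and at 25.9, 25.5 and 28.9 CPM in ΔRS-res, which gave 0.45 ± 0.101 (adjusted p = 0.0888) in the 6 libraries and 0.33 ± 0.0606 (adjusted p = 0.0135) in the 4. In whole-cell RNA SQLE was at 95.5, 98.01 and 149 CPM against 141, 140 and 162 CPM, and without the doubted library it rose by 0.61 ± 0.0843 (adjusted p = 0.0157), as FDFT1 did by 0.42 ± 0.0647 (adjusted p = 0.0238).

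**Figure D2:**
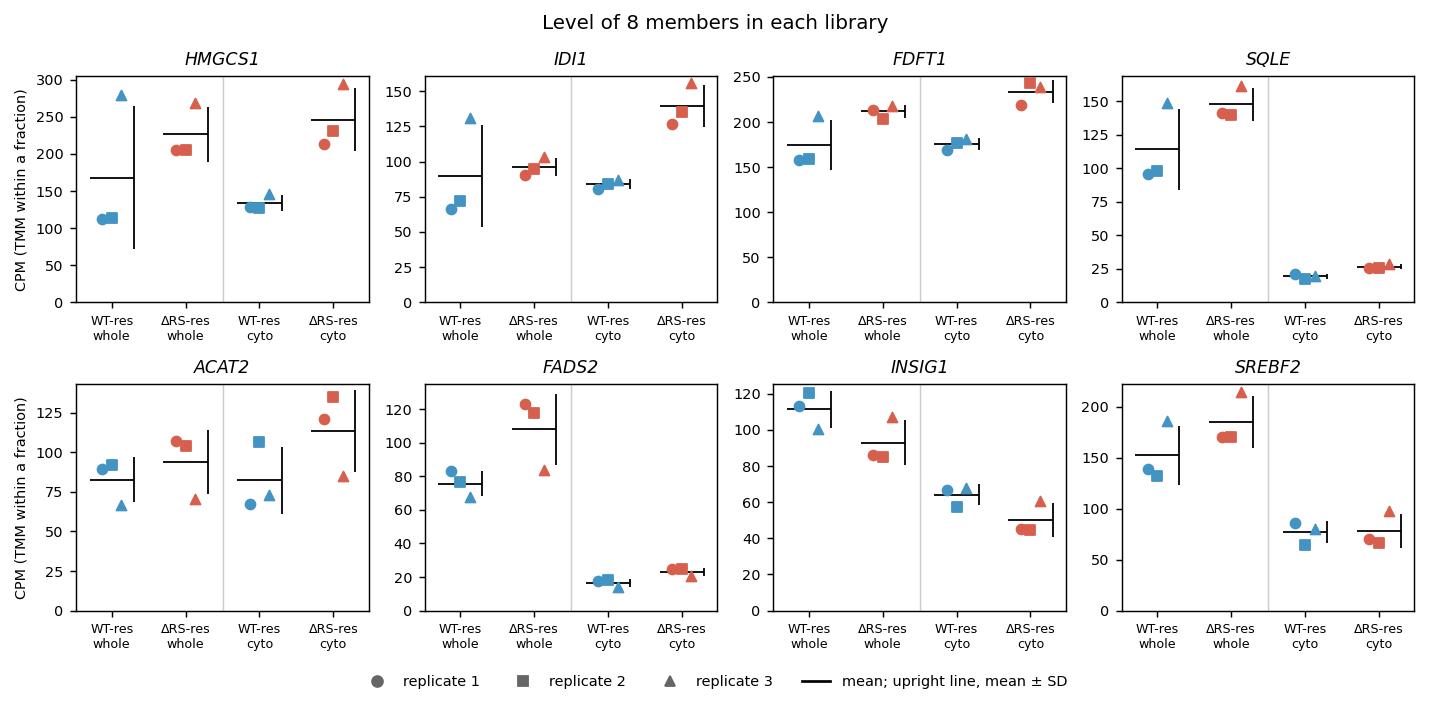
CPM of 8 genes in each of the 12 libraries, scaled within a fraction, with the replicate number as the marker and the mean ± SD of the 3 replicates as lines. For HMGCS1, IDI1 and FDFT1 every cytoplasmic ΔRS-res library is above every cytoplasmic WT-res library, and in whole-cell WT-res replicate 3 lies far above replicates 1 and 2.

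The calls in the 6 cytoplasmic libraries were sensitive to single libraries. No member was called without WT-res cytoplasmic replicate 1 or replicate 3, or in a joint fit of all 12 libraries. IDI1 alone was called without WT-res cytoplasmic replicate 2 or ΔRS-res cytoplasmic replicate 2, and HMGCS1 and IDI1 were called without ΔRS-res replicate 1. Without ΔRS-res replicate 3 HMGCS1 and IDI1 rose and INSIG1 fell. The share of all genes called in these fits is not given here. The lost calls therefore cannot be told from a change over all genes. The log2 fold changes themselves moved little, between 0.73 and 0.97 for HMGCS1, 0.64 and 0.79 for IDI1 and 0.37 and 0.45 for FDFT1 when each library was left out in turn. With the 4 libraries of the study, leaving out ΔRS-res replicate 2 reduced the calls from 19 to 11, beside 7.73% of all genes called in that fit, and without ΔRS-res replicate 1 there were 14, beside 8.56%. Leaving out WT-res replicate 1 or 3 gave 21 and 20, beside 24.5% and 24.1%.

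Among the mevalonate genes, 6 of 7 rose in the 4 cytoplasmic libraries, and PMVK, phosphomevalonate kinase, did not (log2 fold change of -0.063 ± 0.0607, adjusted p = 0.52). ACAT2, the cytosolic thiolase that makes acetoacetyl-CoA, had the largest change there, at 67.2 and 73.3 CPM in WT-res replicates 1 and 3 and at 121 and 135 CPM in ΔRS-res replicates 1 and 2, a log2 fold change of 0.87 ± 0.0718 (adjusted p = 0.00139). The libraries that the study left out read 106.5 CPM in WT-res replicate 2 and 85.0 CPM in ΔRS-res replicate 3, so with all 6 the groups overlapped and the value was 0.46 ± 0.212 (adjusted p = 0.5). ACAT2 overlaps TCP1, a chaperonin gene with more counts, on the other strand, and whether the counting used strand is not given in the sources used here. MVK (0.57), FDPS (0.49) and MVD (0.46) make mevalonate phosphate, farnesyl diphosphate and isopentenyl diphosphate respectively. All 3 rose in the 4 libraries, and none of them was called in the 6, where their log2 fold changes were 0.37, 0.39 and 0.41.

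Of the 11 genes from squalene to cholesterol, 9 rose in the 4 cytoplasmic libraries. TM7SF2, a sterol reductase, was at 2.64 and 2.42 CPM against 3.87 and 3.83 CPM (log2 fold change of 0.61 ± 0.101, adjusted p = 0.00941). NSDHL, a sterol dehydrogenase of the demethylation steps, was at 14.7 and 17.2 CPM against 23.7 and 24.7 CPM (0.61 ± 0.0784, adjusted p = 0.00444), and DHCR7, which reduces 7-dehydrocholesterol, was at 9.46 and 8.33 CPM against 12.9 and 13.6 CPM (0.58 ± 0.091, adjusted p = 0.008). In each of these genes both ΔRS-res libraries were above both WT-res libraries. With the libraries left out the groups of NSDHL overlapped, at 20.6 CPM in WT-res replicate 2 and 19.9 CPM in ΔRS-res replicate 3, and the value was 0.38 ± 0.141 (adjusted p = 0.371) in the 6. EBP, a sterol isomerase (0.43), MSMO1, a methyl sterol oxidase (0.41), LSS, which closes the ring of lanosterol (0.41), and HSD17B7, a sterol ketone reductase (0.34), also rose, with FDFT1 and SQLE. CYP51A1, the lanosterol demethylase, was at 0.16 and SC5D, a sterol desaturase, at -0.22, and neither was called.

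In the 6 cytoplasmic libraries the log2 fold changes were 0.47 ± 0.137 for TM7SF2 (adjusted p = 0.213) and 0.42 ± 0.086 for MSMO1 (adjusted p = 0.0648). Counted without a test, 14 of the 31 genes had all 3 cytoplasmic ΔRS-res libraries above all 3 of WT-res, beside 8.62% of all genes tested, and 0 had all 3 below, beside 8.56%. In whole-cell RNA 13 were above in this sense, beside 8.74% of all genes, and 0 were below, beside 10.2%. Without the doubted library these counts were 19 and 1, beside 21.4% and 21.2%. MVD, FDPS, LSS, TM7SF2, EBP, DHCR7, ACLY and FADS2 were above in both fractions with all libraries. The share of all genes above in both fractions is not given here. Both fractions of a replicate carry the same cell pellet name in the paper's sample sheet, so the fractions may not be independent of each other. Whether more members than other genes were above in both therefore cannot be read from this list.

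Of the 6 genes of control and transport none rose and 2 fell in the 4 cytoplasmic libraries, while in the 6 libraries 4 were higher and 2 lower and none was called. INSIG1, which retains SCAP in the endoplasmic reticulum, was the member that fell most, at 66.9 and 68.0 CPM in the 2 WT-res cytoplasmic libraries of the study against 45.0 and 44.6 CPM in ΔRS-res (log2 fold change of -0.58 ± 0.0428, adjusted p = 0.00102). The remaining cytoplasmic libraries read 57.6 CPM in WT-res and 60.9 CPM in ΔRS-res, and with all 6 the value was -0.35 ± 0.134 (adjusted p = 0.378). In whole-cell RNA INSIG1 was at 113, 120 and 100 CPM against 86.2, 85.2 and 107.25 CPM. SREBF2, the precursor of the SREBP that favours cholesterol genes, fell in the 4 cytoplasmic libraries (-0.27 ± 0.0601, adjusted p = 0.0244), and its value was 0.023 ± 0.162 in the 6 and 0.28 ± 0.153 (adjusted p = 0.52) in whole-cell RNA. SCAP was at 0.17 ± 0.12 in the 6 cytoplasmic libraries and at 0.21 ± 0.0638 (adjusted p = 0.252) in whole-cell RNA, where it passed with the replicate block. SREBF1, SCAP, INSIG2 and STARD4, a cytosolic sterol carrier, were not called in either cytoplasmic comparison.

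Among the genes of fatty acid synthesis 2 of 7 rose in the 4 cytoplasmic libraries. ACLY, which makes cytosolic acetyl-CoA from citrate, was at 575 and 587 CPM against 820 and 810 CPM (log2 fold change of 0.49). FADS2, the delta-6 desaturase of polyunsaturated fatty acids, was at 17.6 and 14.0 CPM against 24.6 and 24.7 CPM (0.65 ± 0.116, adjusted p = 0.0124), and in the 6 libraries the value was 0.49 ± 0.127 (adjusted p = 0.152). In whole-cell RNA FADS2 was at 82.9, 76.5 and 67.8 CPM against 123, 118 and 83.9 CPM, with no overlap, with a log2 fold change of 0.51 ± 0.152 (adjusted p = 0.24), the largest of the 31 with all 6 libraries. Without the doubted library it was 0.44 ± 0.159 (adjusted p = 0.189), below HMGCS1, SQLE, IDI1 and SREBF2. It passed with the replicate block (0.50 ± 0.0696, adjusted p = 0.0261). FASN, fatty acid synthase, was at 934, 859 and 853 CPM against 1131, 1125 and 1122 CPM in whole-cell RNA (0.35 ± 0.0687, adjusted p = 0.213, and 0.33 without the doubted library), and passed with the block (adjusted p = 0.0261). SCD, FADS1 and ACACA, the carboxylase that makes malonyl-CoA, were at 0.023, -0.029 and -0.13 in the 4 cytoplasmic libraries and were not called. FADS1, FADS2 and FEN1 overlap on chromosome 11, so reads of FADS2 and its neighbours may have been split between them.

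The other members with the largest whole-cell values were TM7SF2 (log2 fold change of 0.42 ± 0.13, adjusted p = 0.252), SQLE (0.37 ± 0.174, adjusted p = 0.445), ACLY (0.31 ± 0.091, adjusted p = 0.234) and MVK (0.29 ± 0.122, adjusted p = 0.391). With the replicate block ACLY passed (0.31 ± 0.0505, adjusted p = 0.0291), as did SREBF2 (0.29 ± 0.0489, adjusted p = 0.0306). With the doubted library left out the log2 fold changes were 0.41 for TM7SF2, 0.28 for ACLY, 0.23 for MVK and 0.45 for SREBF2, and none of these was called.

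Whether the difference between the lines itself differed between the fractions was tested as an interaction over all 12 libraries. None of the 31 genes passed, also at an unadjusted p under 0.05, where 5.52% of 26686 genes did, and 0.00375% of all genes passed after adjustment. DESeq2 called none of the 31 either. The largest values were those of IDI1 (0.62 ± 0.295, adjusted p = 0.932), HMGCS1 (0.44 ± 0.422), STARD4 (0.36 ± 0.201), SREBF2 (-0.27 ± 0.254), ACAT2 (0.26 ± 0.311), MSMO1 (0.21 ± 0.205), PMVK (-0.18 ± 0.131) and ACACA (-0.16 ± 0.111), all on the log2 scale and, after IDI1, with an adjusted p of 1.00. Without the doubted library HMGCS1 turned to -0.15 and MSMO1 to -0.032, and IDI1 was at 0.23 ± 0.128. A p that misses the threshold does not show that the fractions responded alike.

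The genes did differ between the fractions within each line. In WT-res 18 of the 31 were lower in cytoplasmic than in whole-cell RNA and 1 was higher, beside 22.4% and 12% of the 26585 genes tested. Without the doubted library 18 were lower and 4 higher, beside 22.7% and 13.9%. In ΔRS-res 17 were lower and 5 higher, beside 24.1% and 17% of the 26589 genes tested. With the replicate block, 19 were lower and 8 higher there, beside 30.2% and 26.3%. The 31 genes were then sorted by the kind of protein they encode, from textbook knowledge and after their values had been seen, so the sorting is a description without a test, and the counts depend on it. FDFT1, which is held in the membrane by its tail, was sorted apart with the membrane-associated LSS, NSDHL and HSD17B7. These 4 had pairs from -0.63 to 0.33, and 2 of them were lower in all 6 pairs. FDFT1 itself had pairs from -0.11 to 0.33. All 16 genes of membrane-spanning proteins were lower in the cytoplasmic fraction in all 6 pairs of libraries with the same line and number, by between 0.26 and 2.83 on the log2 scale. Their medians were -1.63 in WT-res and -1.56 in ΔRS-res, where the medians over all genes tested were -0.057 and -0.056. Of the 11 genes of soluble enzymes and carriers 0 were lower in all 6 pairs and 3 were higher in all 6, with medians of 0.071 and 0.23. The share of all genes lower or higher in all 6 pairs is not given here. The hypotonic supernatant is cleared by centrifugation, and how much of the endoplasmic reticulum it held was not tested.

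DHCR7 was the lowest, at 64.3, 61.3 and 56.7 CPM in whole-cell WT-res and at 9.46, 10.98 and 8.33 CPM in the cytoplasm, a log2 difference of -2.57 ± 0.126 (adjusted p = 7.47e-06) in WT-res and of -2.42 ± 0.0919 (adjusted p = 1.31e-06) in ΔRS-res. SQLE followed with -2.46 ± 0.182 in WT-res (adjusted p = 3.8e-05) and -2.38 ± 0.0884 in ΔRS-res (adjusted p = 1.26e-06). CYP51A1, -2.05 ± 0.101 and -2.04 ± 0.0654, and FADS2, -2.11 ± 0.133 and -2.14 ± 0.159, were close behind. The precursors of the transcription factors span the membrane too, and SREBF1 was at -1.93 ± 0.127 in WT-res and -2.03 ± 0.0895 in ΔRS-res, whereas SREBF2 was at -0.90 ± 0.156 and -1.16 ± 0.162. Their chaperone SCAP was at -1.69 ± 0.112 and -1.73 ± 0.0788. SCD, the stearoyl-CoA desaturase, was at -1.84 ± 0.0924 and -1.94 ± 0.0966, and SC5D at -1.65 ± 0.121 and -1.56 ± 0.0971. INSIG2 was the membrane gene nearest to 0, at -0.46 in WT-res and -0.30 in ΔRS-res.

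Genes of soluble enzymes read near 0 or above. PMVK was higher in the cytoplasm in both lines (0.51 in WT-res, 0.34 in ΔRS-res). IDI1 and STARD4 were higher in ΔRS-res (0.62 and 0.67), while in WT-res they were at -0.0019 and 0.30 and were not called. With that library left out they were higher in WT-res too (0.36 and 0.45), as was HMGCS1 (0.32). In WT-res the third pair, which holds the doubted whole-cell library, gave -0.52 for IDI1 where the other pairs gave 0.40 and 0.33, and -0.86 for HMGCS1 where the others gave 0.32 and 0.25. FDFT1, and LSS, which sits on the membrane, were at 0.10 and -0.043 in WT-res, and the membrane-associated NSDHL and HSD17B7 at -0.41 and -0.41.

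**Figure D3:**
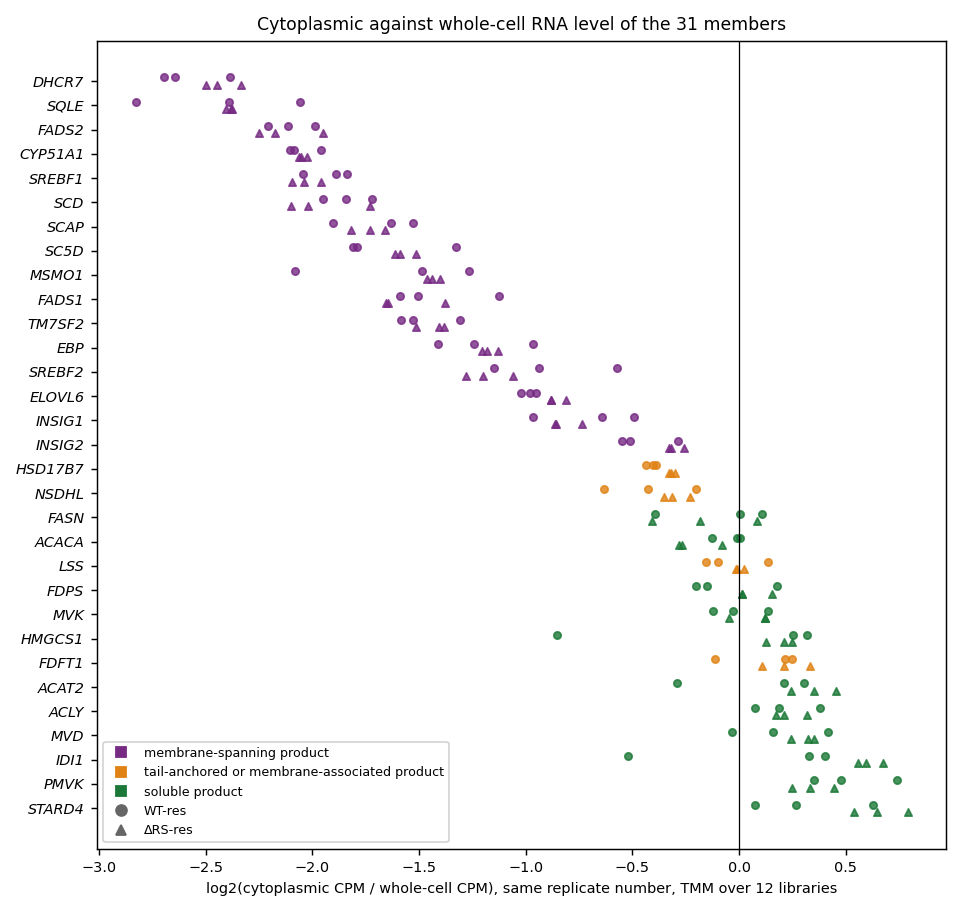
Log2 ratio of cytoplasmic to whole-cell CPM for each gene in the 3 pairs of WT-res (circles) and ΔRS-res (triangles) libraries with the same replicate number, ordered by the mean and coloured by the kind of protein. The 16 genes of membrane-spanning proteins lie below 0 in every pair, from -2.83 to -0.26, and the 11 of soluble proteins lie between -0.86 and 0.79. The 4 of tail-anchored or membrane-associated proteins lie between -0.63 and 0.33.

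The levels per length, as TPM computed from annotated transcript lengths, placed ACLY highest in whole-cell WT-res at 186 ± 12.6 (SD, n = 3), followed by FASN (171 ± 9.47), SCD (171 ± 4.58) and FDPS (170 ± 9.55), of which the last 3 lay within 1 SD of each other. INSIG2 was lowest at 6.96 ± 0.796, near MVK (7.12 ± 0.855) and TM7SF2 (7.65 ± 0.309). In the cytoplasm SCD fell from rank 3 to rank 8 and DHCR7 from rank 16 to rank 29, while STARD4 rose from rank 21 to rank 12.

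The members also varied with the replicate number, within lines and fractions. In replicate 3 of all 4 groups 7 genes were above their group mean, HMGCS1, IDI1, FDFT1, SQLE, SC5D, SREBF2 and STARD4, and 12 were below it, ACAT2, MVK, LSS, CYP51A1, TM7SF2, NSDHL, DHCR7, SREBF1, SCAP, ACLY, ELOVL6 and FADS2. For HMGCS1 replicate 3 was 0.87 above the mean in whole-cell WT-res and 0.26, 0.13 and 0.27 above it in the other 3 groups (log2 CPM). For ACAT2 it was 0.30, 0.39, 0.14 and 0.39 below it. The share of all genes with the same sign in replicate 3 of all 4 groups is not given here. Over 14938 genes replicate 3 deviated together too, with r of 0.62 and 0.45 between the lines in whole-cell and cytoplasmic RNA. Replicate 3 of whole-cell WT-res is the doubted library, so its deviations cannot be told from a difference between the lines. The replicates come from consecutive passages, and no label says what else set the third apart.

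**Figure D4:**
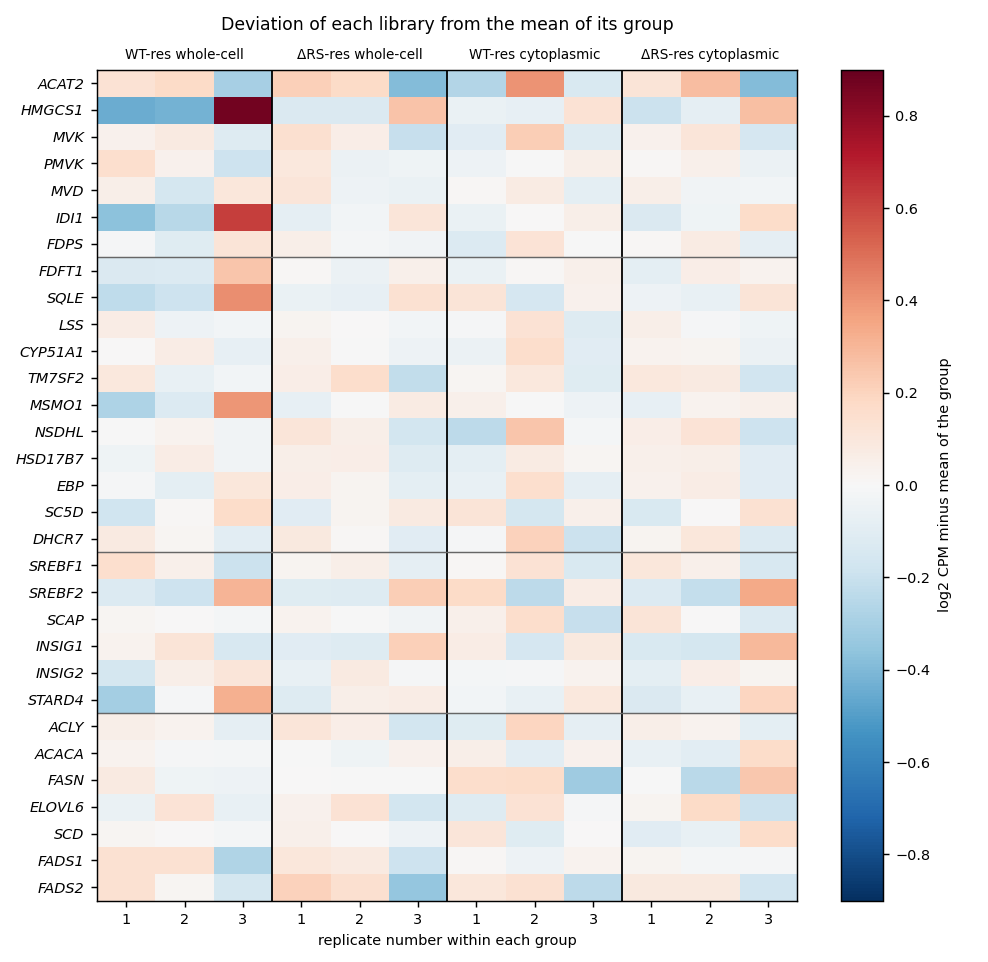
Log2 CPM of each gene in each library minus the mean of its group of 3, grouped by role. Replicate 3 of whole-cell WT-res, the doubted library, is the strongest column, at 0.87 for HMGCS1 and 0.62 for IDI1. In replicate 3 of the other groups HMGCS1, IDI1 and SQLE are above and ACAT2, MVK and FADS2 below the mean.

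Each member was set beside the genes that start within 5 Mb of it, since stretches of some chromosomes differ between the lines. INSIG1 lies at 155.3 Mb on the long arm of chromosome 7 (chr7:155297776-155310235, GRCh38, plus strand), and 76 neighbours had a median log2 fold change of -0.56 in the 4 cytoplasmic libraries, beside -0.58 for INSIG1 itself. In the 6 cytoplasmic libraries the neighbours were at -0.50 and INSIG1 at -0.35, and in whole-cell RNA without the doubted library at -0.46 and -0.33. INSIG1 was thus 0.022 below the median of its neighbours in the 4 libraries and 0.15 above it in the 6. HMGCS1 lies on the short arm of chromosome 5 (chr5:43287470-43313512, minus strand), where 52 neighbours were at 0.34 in the 4 cytoplasmic libraries beside 0.70 for HMGCS1. In the 6 libraries the neighbours were at 0.33 beside 0.88. IDI1 (chr10:1039152-1049119, minus strand) had neighbours at 0.020 beside its own 0.73, and 100% of its 35 neighbours were below it in the 6 libraries. For 29 of the 31 genes the median of the neighbours was within 0.2 of 0 in either cytoplasmic comparison. How much of the difference of HMGCS1 goes with its region was not tested.

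**Figure D5:**
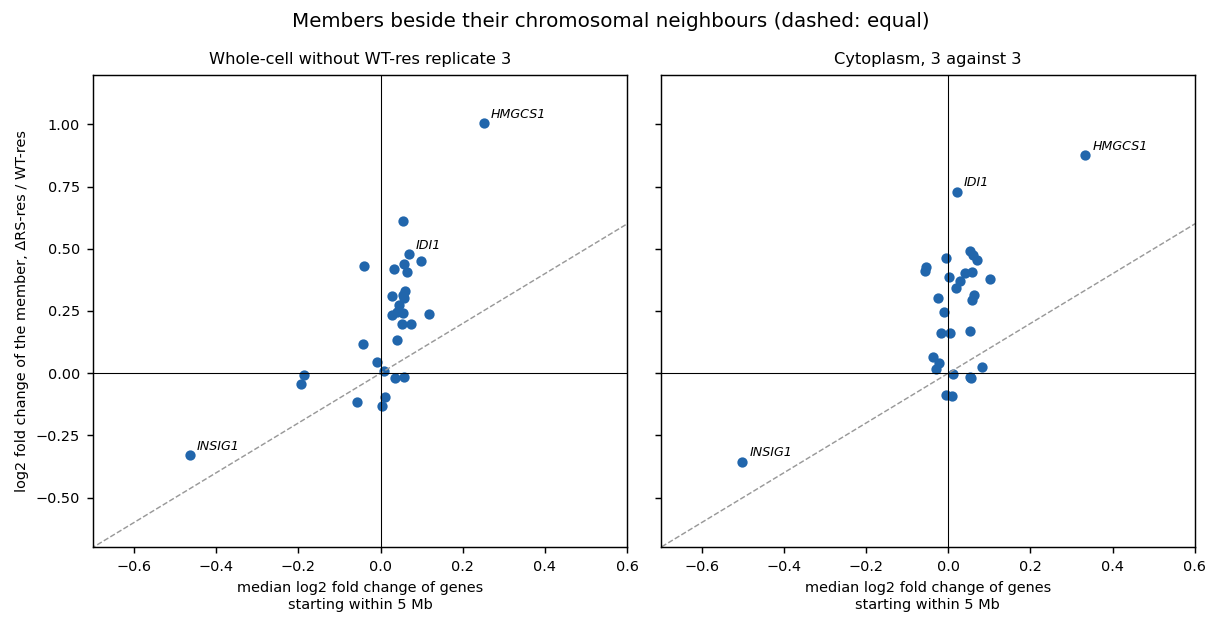
Log2 fold change of each of the 31 genes against the median of the genes starting within 5 Mb, in whole-cell RNA without the doubted library (replicate 3 of WT-res) and in the 6 cytoplasmic libraries, with the line of equality dashed. INSIG1 lies near the line at a neighbour median of -0.46 and -0.50, HMGCS1 lies above it, and most genes stand over neighbours near 0.

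The promoters of the genes were read for 3 motifs known from this pathway, the sterol response element (TCACNCCAC), the NF-Y motif (CCAAT) and the Sp1 motif (GGGCGG), on both strands, since many members were higher in ΔRS-res. RefSeq windows from 250 bases before to 50 after the start (GRCh38.p14) covered 27 of the 31 genes in 37 windows, and ACAT2, FDFT1, SQLE and FASN were not in the table. The first motif was found in the window of 1 gene, SREBF2, beside 1.39% of all genes with a window, and the shorter CACCCCAC, added after that count, was found at the same place of SREBF2 and in no other member. CCAAT was found in 20 of 27 genes, beside 39.7% of all, and GGGCGG in 26 of 27, beside 48.3% of all. These shares are over all 27305 genes with a window, whether expressed in these cells or not, whereas all members are expressed. A match is no evidence of a site, and no match says only that these letters are not in the window. The stretches of 30 bases around the match in SREBF2 and around a CCAAT match in the 2 mevalonate genes that rose in the 6 cytoplasmic libraries (1 of several matches in each) and in INSIG1 are given 5′ to 3′ on the strand of the gene, with the match in capitals (ATTGG is CCAAT on the other strand).
SREBF2, chr22:41832962-41832991, plus strand: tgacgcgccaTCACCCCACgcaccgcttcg
HMGCS1, chr5:43313495-43313524, minus strand: ctaccggccgcgATTGGctgtgggagccac
IDI1, chr10:1048956-1048985, minus strand: ctggcgcgagcgATTGGctgcgcggcccgg
INSIG1, chr7:155297696-155297725, plus strand: cgccggcctcccATTGGttgcggccgcctc
The match begins 133 bases before the start in SREBF2, 100 before it in HMGCS1, 87 before it in IDI1 and 170 before it in INSIG1. HMGCS1, IDI1 and INSIG1 differed between the lines by 0.88, 0.73 and -0.35 in the 6 cytoplasmic libraries. The medians of their neighbours within 5 Mb were 0.33, 0.020 and -0.50. Whether the motif bears on these values was not tested.

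At the level of transcripts, where the study drew its own calls (unadjusted p under 0.05 and a log2 fold change above 0.5 in size), 42 of 266 member transcripts from 21 genes passed in the 4 cytoplasmic libraries, 35 of them higher and 7 lower. Of all 122729 transcripts 8.78% passed, 4.12% higher and 4.66% lower. In the 6 libraries 29 of 270 passed, 28 higher, beside 4.06% of all in either direction and 1.93% higher. In whole-cell RNA 7 of 296 passed, all higher, beside 5.25% in either direction and 1.81% higher. Without the doubted library 26 of 296 passed, all higher, beside 6.28% in either direction and 3.13% higher. With edgeR none of the member transcripts reached an adjusted p under 0.05 in any of these comparisons, beside 0.0241% of all transcripts in the 6 libraries, 0.0132% in whole-cell RNA without the doubted library and 0% in the others. DESeq2 gave 22, 18 and 12 in the 4, the 6 and the whole-cell libraries, beside 4.24%, 1.33% and 2.01% of all transcripts. HMGCS1-202, which held 92.3% of the gene's counts on average, was at 0.66 ± 0.114 in the 4 and 0.89 ± 0.163 in the 6. IDI1-206, with 77.8% of the counts of IDI1, was at 0.67 ± 0.0947 and 0.81 ± 0.123. ACLY-207, with 34.5% of ACLY, was at 0.81 ± 0.0765 in the 4 libraries, above the gene's 0.49. Its share varied between the 12 libraries from 29.5% to 39.0%. In the 4 it was 29.7% and 31.4% in WT-res and 38.6% and 39.0% in ΔRS-res. In the cytoplasmic libraries left out it was 38.7% in WT-res and 30.2% in ΔRS-res. INSIG1-201 was at -0.66 ± 0.0611. Transcripts that fell past this threshold in the cytoplasm but not in whole-cell RNA, a pattern that bears on export and was counted here after the values were seen, were 7 of 261 member transcripts in the 4 libraries, beside 4.32% of all, and 1 of 264 in the 6, beside 1.74%.

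SREBF1 has 2 promoters, and the upstream one starts the 1a form of the factor. The 3 transcripts that start upstream held 68.9% to 77.6% of the SREBF1 counts over the 12 libraries, and the 3 that start between positions 17823594 and 17823618 of chromosome 17, at the downstream promoter, held 1.2% to 3.84%. The ranges of WT-res and ΔRS-res overlapped in both fractions.

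From a list of 38 other genes of lipid metabolism and its control, 7 rose and 10 fell in the 4 cytoplasmic libraries, beside 10.7% and 11.4% of all genes, with a median of -0.036. The 4 called genes with the largest change were ELOVL5, a fatty acid elongase (-0.76), ERG28, a scaffold of sterol demethylation (0.63), NPC2, which carries cholesterol in lysosomes (-0.52), and SLC25A1, the mitochondrial citrate exporter (0.49). In the 6 libraries SLC25A1 rose (0.62 ± 0.093, adjusted p = 0.0178). It was the only called gene of the 38, beside 0.578% of all genes called higher and 0.948% called lower. In whole-cell RNA none of the 38 was called by edgeR, and 6 had an unadjusted p under 0.05. Of these OSBP, LPCAT3 and SCD5 were higher and ACSL3, GGPS1 and PRKAA2 lower, beside 4% and 8.54% of all genes. Without the doubted library SLC25A1 rose (0.73) and ACSL3 fell (-0.73), beside 0.886% and 1.18% of all genes. Between the fractions 22 of the 38 were lower in the cytoplasm in each line, beside 22.4% of all genes in WT-res and 24.1% in ΔRS-res, and 7 and 5 were higher, beside 12% and 17%. Those highest in WT-res were GGPS1 (0.69), PRKAA2 (0.56) and ME1 (0.52). The lowest of the 38 in WT-res were NPC1 (-2.64), SOAT1 (-2.31), ACSL3 (-2.26) and LBR (-2.09). These 38 were not sorted by the kind of protein.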

How the data were processed

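RNA was ribosome-depleted and sequenced as paired reads in 12 libraries, and the authors trimmed reads with Trim Galore, aligned them to GRCh38 with STAR and deposited expected counts per transcript from RSEM, according to the submitters' processing notes. The versions of these tools and the strand setting are not given in the sources used here. In the present work the expected counts were summed per gene and rounded to whole numbers, genes with a mean count above 2 in the libraries of a fit were kept, and TMM scaling with edgeR's quasi-likelihood test (edgeR 4.0.16, R 4.3.3) was used with Benjamini-Hochberg adjustment over all genes tested, with DESeq2 1.42.0 as an alternative. Standard errors are derived from the F statistic. CPM values use TMM library sizes within a fraction, and over the 12 libraries for pairs of fractions. Symbols and positions come from GENCODE 44, which matched 99.8% of genes, and promoters from RefSeq. TPM values were computed from the expected counts and annotated transcript lengths. Alternatives were other size factors, DESeq2, no filter and filterByExpr, the threshold of the study, a joint fit, the replicate block and leaving out each library. The fits were tested on simulated data. MVK, TM7SF2, CYP51A1 and SREBF1 overlap MMAB, VPS51, AKAP9 and RAI1, and HSD17B7, FDPS, CYP51A1 and SCD have near-identical copies elsewhere, so their counts are uncertain where reads could be split. The replicates are consecutive passages of the same lines, so p-values measure the spread between passages of 1 line each.

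The members, the gene lists and the tests were chosen with earlier results of these data known. All members may be named, and full statistics go to the 8 members with the largest change in a comparison, called ones first. In whole-cell RNA, libraries of the 2 lines with the same number deviated together (Pearson r of 0.45, 0.45 and 0.62 over 14938 genes with a mean count of at least 100), so the numbers pair them, and blocked values are given where they change a call. The fractions of ΔRS-res with the same number also deviated together (0.42, 0.38 and 0.76), but only replicate 3 was closest to its own number. The paper's sample sheet gives the 2 fractions of a replicate the same cell pellet name, in both lines. In ΔRS-res the block called 27 members in place of 22, beside 56.5% and 41.1% of all genes. Depth was 90333190 to 144628005 counts per library, and intervals cover the spread between libraries only.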

Additional observations from a re-analysis of the deposited data

How the results depend on the processing

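The number of members called depended on the fit. In whole-cell RNA it was 0, and 1 by the study's threshold, 3 with DESeq2, 8 with the replicate block, 0 to 4 when each library was left out, 21 with the block and 11 with DESeq2 without the doubted library (labelled replicate 3 of whole-cell WT-res), the last 2 chosen after seeing the data. No share of all genes is given here for the 11, nor for leaving out a whole-cell library other than the doubted one. In the 4 cytoplasmic libraries it was 19, and 9 by the study's threshold and 11 to 21 when each library was left out; no paired analysis was possible because these 4 share 1 number only. In the 6 it was 3, and 10 with DESeq2, 5 with the replicate block, 0 in the joint fit of 12 libraries and 0 to 3 when each was left out. No share of all genes is given here for leaving out each of the 6. Between the lines in the cytoplasm only replicate 3 was closest to its own number, with r of -0.32, 0.55 and 0.45 for replicates 1 to 3. Over all genes the calls were 0, 1064 with DESeq2, 2136 with the block and 552 without the doubted library in whole-cell RNA, and 396, 933 and 520 with DESeq2 and the block in the 6 cytoplasmic libraries. Member transcripts past the study's threshold were 7, 42 and 29, and at an adjusted p under 0.05 they were 0 with edgeR and 12, 22 and 18 with DESeq2; without the doubted library 26 passed in whole-cell RNA.

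In the interaction test, leaving out each library gave -0.15 to 0.66 for HMGCS1 and -0.032 to 0.34 for MSMO1, with the values below 0 without the doubted library, and the replicate block without that pair gave -0.090 and -0.060. The other 148 values of the interaction kept their direction and call under the alternatives, as did the 96 and 88 fraction differences of the named members in WT-res and ΔRS-res. No other value of a named member changed its direction: 4 lost the call in the 4 cytoplasmic libraries, 15 lost and 5 gained it in the 6, and 19 gained it in whole-cell RNA. The cause was not tested.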
